A study of Mus musculus with 9 samples.

Results

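Ventral hippocampus of mice labelled CRS-WT-DR5-12D (3 libraries) was set against ventral hippocampus of mice labelled CRS-NKAα1+/- (3 libraries). Gene expression had been measured by bulk RNA sequencing of freshly taken tissue in 9 libraries, and the other 3, labelled CRS-WT, are given last wherever all groups are shown. All 3 groups carry the prefix CRS, which the labels do not spell out. CRS-WT-DR5-12D mice were wild type and received DR5-12D, known from earlier work as an antibody against an extracellular stretch of the Na,K-ATPase alpha 1 subunit. CRS-NKAα1+/- mice are labelled as heterozygous for that subunit, a genotype given here only as the label states it, and CRS-WT mice as wild type with no agent named. By their labels the 2 groups differ in genotype and in treatment at once, and the parts of these cannot be told apart in any value of their comparison. The labels give neither age, sex, dose nor the design of the allele, and do not say which animal each library came from, so that p-values measure the spread between these libraries, which may be technical.

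Of 53465 genes in the deposited table, the 17753 with a mean of at least 0.5 FPKM over the 9 libraries were compared. FPKM, the authors' unit, scales fragments to gene length and library depth. Depths implied by the values ran from 15117452 to 27323379 fragments per library. A log2 fold change here is the mean log2(FPKM + 1) of CRS-WT-DR5-12D minus that of CRS-NKAα1+/-. A negative value thus means lower in CRS-WT-DR5-12D, and the added 1 shrinks fold changes for genes of low level. Where a gene is said to have fallen, it lay lower than in CRS-NKAα1+/-, not necessarily lower than in CRS-WT. A gene was called when limma's moderated test, adjusted after Benjamini-Hochberg over all genes tested, gave an adjusted p under 0.05.

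The Na,K-ATPase is the pump that exports sodium and imports potassium across the plasma membrane, and its alpha 1 subunit has also been described as a signalling partner of Src-family kinases. Microglia, the resident macrophages of the brain, and astrocytes respond to stress and injury with complement components, cytokines, chemokines and antigen presentation genes. The ventral hippocampus is known for its part in anxiety-related behaviour and in the response to stress hormones.

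The libraries were first read for what tissue they hold. Excitatory neuron transcript Slc17a7 stood between 193 and 257 FPKM in all 9. Prox1, the defining transcription factor of dentate gyrus granule cells, was at 1.0, 10.2 and 9.0 FPKM in CRS-WT-DR5-12D replicates 1 to 3 and at 1.28, 0.90 and 7.51 FPKM in CRS-NKAα1+/- replicates 1 to 3, while the CRS-WT libraries held 7.93 to 11.6 FPKM. Fibcd1, a transcript of CA1 pyramidal cells, was at 1.49 to 1.86 FPKM in the same 3 low libraries and at 20.8 to 29.2 FPKM in the other 6. Wfs1, another CA1 transcript, was not low in them. It was at 25.0, 19.2 and 21.4 FPKM in CRS-WT-DR5-12D replicates 1 to 3. In CRS-NKAα1+/- replicates 1 to 3 it was at 37.2, 43.9 and 10.5 FPKM, and in CRS-WT at 17.0 to 25.2 FPKM. By Prox1 and Fibcd1, CRS-WT-DR5-12D replicate 1 and CRS-NKAα1+/- replicates 1 and 2 stand apart. Counts are given with and without them below. The annotated miRNA gene Gm23935 took 26.5% to 37.9% of the FPKM sum in the 6 libraries compared and 4.7% to 19.3% in CRS-WT.

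Of 15 measured subunits and partners of the Na,K-ATPase limma called 0, where 0.513% of all genes tested were called in either direction. At an unadjusted p under 0.05, 1 of the 15 was higher and 1 lower, and voom, the count-based form of limma run on recovered fragments, also called 0. The lower was Fxyd5, with a log2 fold change of -0.78, no overlap and a limma adjusted p of 0.19. The higher was Nkain1, at 0.30 with overlapping groups and a limma adjusted p of 0.507. The beta subunits, which carry the pump to the membrane, had log2 fold changes of 0.17 for Atp1b1, -0.20 for Atp1b2 and -0.05 for Atp1b3. The sign of Atp1b3 turned when values were rescaled to TPM.

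In CRS-WT-DR5-12D ventral hippocampus far more genes lay below their CRS-NKAα1+/- level than above it among those that passed the test. Limma called 89 genes lower and 2 higher in CRS-WT-DR5-12D, which is 0.501% and 0.0113% of the genes tested, and 1568 genes (8.83%) had an unadjusted p under 0.05. The 89 held cytokines and chemokines such as Il1b and Cxcl1, acute-phase genes such as Saa3 and Lcn2, the complement genes C1qa, C1qb and C1qc, Fc receptors and MHC class I genes. The 2 higher genes were the myelin gene Opalin and the predicted gene Gm2061. Log2 fold changes of the 89 ran from -4.57 to -0.46 with a median of -1.44, where the median over all genes tested was 0.0065. In 75 of the 89 the fold change was -1 or below, and in 20 it was -2 or below.

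Of the 89 genes called lower, 87 were protein-coding. In 38 the gene belonged to one of 14 lists of immune and glial response genes, which hold 198 tested genes, and 45 belonged to none of the 49 lists used. The lists hold 860 genes, of which 784 passed the filter on low values. Of these lists 17 had a member called lower, and among their 278 tested members limma and voom called 0 higher, with 7 higher at an unadjusted p under 0.05. The 17 were picked by their calls, and limma called 0.0113% of all genes tested higher, so the 0 does not bear on their direction. All 91 called genes had no overlap between the 3 libraries of each group. Over all genes tested, 7.15% lay lower without overlap and 5.35% higher. The called genes C5ar1, Cxcl2, Csf3, Bcl6b, Ifi204 and Birc3, 6 of the 89, passed the filter on low values only through the CRS-NKAα1+/- libraries. Such genes had to lie lower, and with those not called, such as Tnf and Nlrp3, they number 3 of 11 tested acute-phase and neutrophil genes, 2 of 13 complement genes, 4 of 24 interferon-response genes, 3 of 19 chemokines and receptors, 3 of 16 inflammasome and interleukin-1 genes, 2 of 19 NF-kappaB and TNF genes and 2 of 5 lymphocyte genes. There was 1 each among 15 microglial activation, 9 MHC class II, 10 Toll-like receptor and 20 cortical neuron genes, so that list counts and medians below are descriptions. Among the 91 genes, 18 share at least 10% of their exon bases with another annotated gene.

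The number of calls rested on few libraries. Without CRS-WT-DR5-12D replicates 1, 2 or 3 limma called 12, 1 and 7 genes lower, and without CRS-NKAα1+/- replicates 1, 2 or 3 it called 192, 61 and 50. With the 6 libraries alone in the fit it called 4, Srgn, Fcgr3, Sele and Tmem173, where the spread is estimated without CRS-WT. Leaving out CRS-WT replicates 1, 2 or 3 gave 29, 32 and 25. Without the 3 libraries that stood apart 94 genes were called lower, of which 36 were among the 89. That setting leaves CRS-NKAα1+/- with replicate 3 alone, which is assumed to vary like the libraries of the other groups. The only call left without CRS-WT-DR5-12D replicate 2 was Srgn, and without replicate 3 the 7 were Srgn, Fcgr3, Spint1, C5ar1, Ly6a, Creld2 and Sdf2l1. Without replicate 1 the 12 were Srgn, Fcgr3, Ptges, Spint1, Ctss, C1qb, C1qa, C5ar1, Tyrobp, Ly6a, Rnd1 and Cdkn1a, of which Rnd1 and Cdkn1a were not among the 89.

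Over the 23 alternatives, the medians of 16 of the 17 lists with a member called lower stayed below 0, the endothelial list being the exception. Those lists were picked by calls in the same data, so their medians are a description. Of the genes described below, C1qa and C5ar1 were called in 20 of the 23 alternatives, Ctsh in 19, Icam1 in 18, Creld2 in 15, H2-D1 in 14, Ifitm3 in 12, Saa3 in 10 and Lcn2 in 6.

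**Figure D1:**
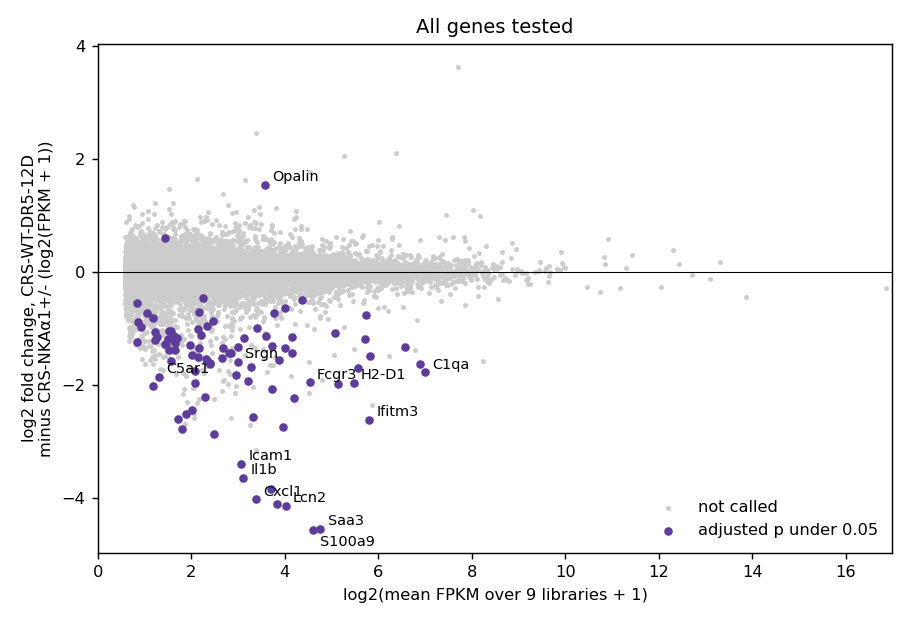
Log2 fold change of CRS-WT-DR5-12D minus CRS-NKAα1+/- (vertical axis, log2(FPKM + 1)) against the log2 mean level over 9 libraries (horizontal axis) for the 17753 genes tested, with the 91 called genes in purple. The called genes lie below 0 but for Opalin and Gm2061, and the lowest reach -4.57.

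The genes called in the most alternatives were Srgn, Fcgr3 and the endothelial gene Ly6a. Srgn encodes serglycin, the proteoglycan that packs the granules of immune cells, and lies at chr10:62493833-62527451 on the minus strand (GRCm38). It was at 2.80, 3.69 and 3.69 FPKM in CRS-WT-DR5-12D, at 11.8, 13 and 11.9 FPKM in CRS-NKAα1+/- and at 4.90, 5.69 and 5.61 FPKM in CRS-WT. The CRS-NKAα1+/- libraries agreed closely and stood above all others, with a log2 fold change of -1.60 ± 0.10 and a limma adjusted p of 0.00264, and Srgn was called in 23 of 23 alternatives. Fcgr3, a receptor for the constant part of IgG, lies at chr1:171051174-171064935 on the minus strand. It was at 10.8, 7.89 and 7.66 FPKM in CRS-WT-DR5-12D and at 37.3, 37.4 and 34.9 FPKM in CRS-NKAα1+/-, with 18.5, 25.6 and 18.8 FPKM in CRS-WT. Its 3 groups did not overlap, the log2 fold change was -1.96 ± 0.15 with a limma adjusted p of 0.00622, and it was called in 22 of the 23. Spint1, an inhibitor of serine proteases, was at 0.496 to 0.776 FPKM in CRS-WT-DR5-12D and at 2.63 to 3.32 FPKM in CRS-NKAα1+/-. It fell by 1.28 on the log2 scale, with a limma adjusted p of 0.00864, and is named here after its values were seen.

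Acute-phase and neutrophil genes had the lowest list median. Of 11 tested members 6 were called lower, all 11 lay lower without overlap, and the median log2 fold change was -2.02. S100a9, a subunit of the calcium-binding calprotectin, was at 0.585, 1.01 and 1.06 FPKM in CRS-WT-DR5-12D, at 16.4, 111 and 43.8 FPKM in CRS-NKAα1+/- and at 5.82, 18.9 and 10.7 FPKM in CRS-WT. CRS-NKAα1+/- replicate 2 was the highest of the 9, and the log2 fold change was -4.57 ± 0.62 with a limma adjusted p of 0.0275. Its partner S100a8 fell by 4.11 on the log2 scale. Saa3, an acute-phase apolipoprotein, was at 0.747, 0.606 and 0.612 FPKM in CRS-WT-DR5-12D, at 17.4, 118 and 25.9 FPKM in CRS-NKAα1+/- and at 16.7, 41.9 and 13.1 FPKM in CRS-WT. All 3 CRS-WT-DR5-12D libraries stood below every other library, and the fold change was -4.55 ± 0.66 with a limma adjusted p of 0.0334. Lcn2, the iron-scavenging lipocalin also made by reactive astrocytes, was at 0.364, 0.482 and 3.09 FPKM in CRS-WT-DR5-12D and at 28.5, 47.0 and 31.2 FPKM in CRS-NKAα1+/-, against 1.97 to 19.1 FPKM in CRS-WT. S100a9 was called in 12 of the 23 alternatives. Voom called 1 of the 11 genes. Csf3, the granulocyte growth factor, had a log2 fold change of -2.02. It held 1 to 4 fragments per CRS-WT-DR5-12D library, 65 to 203 per CRS-NKAα1+/- library and 0 to 9 per CRS-WT library. It passed the filter only through CRS-NKAα1+/-, and its difference to CRS-WT was -0.06 in CRS-WT-DR5-12D and 1.96 in CRS-NKAα1+/-.

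Ngp and Retnlg, members of the same list as the called S100a8 and S100a9, were lower by value, and neither was called. The granule gene Ngp was at 0.0502 to 0.129 FPKM in CRS-WT-DR5-12D and at 1.25 to 2.10 FPKM in CRS-NKAα1+/-, with 0.449 to 2.44 FPKM in CRS-WT and a limma adjusted p of 0.13. Retnlg, another neutrophil transcript, was at 0.0866 to 0.303 FPKM in CRS-WT-DR5-12D and at 0.84 to 11 FPKM in CRS-NKAα1+/-, highest in replicate 2, with a limma adjusted p of 0.306. The list mean was 0.67 to 0.87 log2(FPKM + 1) in CRS-WT-DR5-12D, 2.54 to 3.89 in CRS-NKAα1+/- and 1.67 to 2.64 in CRS-WT. Of 16 lymphocyte genes 5 passed the filter, limma called 0 and 2 were lower at an unadjusted p under 0.05, while the B-cell transcript Ms4a1 was at or under 0.012 FPKM in all 9 libraries. Cd79a, another B-cell transcript, was at 0.079, 0.325 and 0.505 FPKM in CRS-WT-DR5-12D, at 0.263, 0.03 and 0.21 FPKM in CRS-NKAα1+/- and at 0.316 to 0.477 FPKM in CRS-WT. In bulk tissue, fewer cells of a type and less RNA per cell cannot be told apart, and the part of blood cells in these results was not tested.

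**Figure D2:**
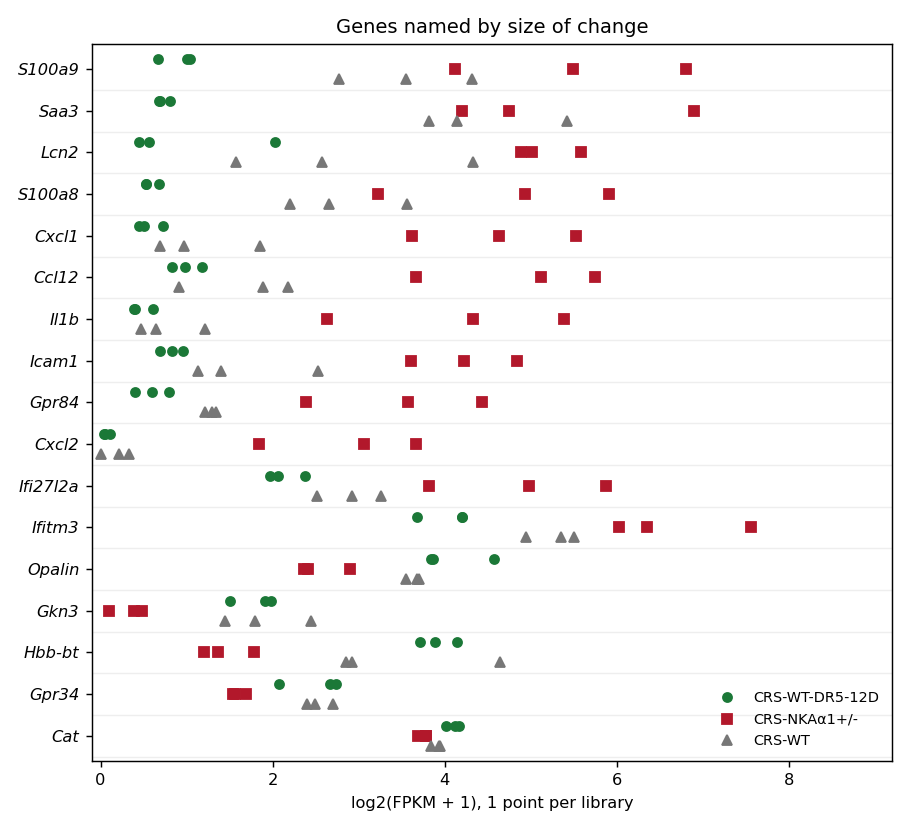
Levels of the genes named by size of change, as log2(FPKM + 1) with 1 point per library, in CRS-WT-DR5-12D (green circles), CRS-NKAα1+/- (red squares) and CRS-WT (grey triangles). The 12 genes at the top were called lower and Opalin called higher, while Gkn3, Hbb-bt, Gpr34 and Cat were not called, and in all 17 the first 2 groups do not overlap.

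Among chemokines and receptors 3 of 19 were called lower, with a median log2 fold change of -0.73. Cxcl1, which draws neutrophils and lies at chr5:90891241-90893115 on the plus strand (GRCm38), was at 0.366, 0.421 and 0.654 FPKM in CRS-WT-DR5-12D, at 11.3, 23.8 and 44.9 FPKM in CRS-NKAα1+/- and at 0.956, 2.61 and 0.615 FPKM in CRS-WT. CRS-NKAα1+/- stood apart from both other groups and its highest library was replicate 3, with a log2 fold change of -4.03 ± 0.46 and a limma adjusted p of 0.0173. Its neighbour Cxcl2, of like function, held 1 to 3 fragments per library in CRS-WT-DR5-12D, 84 to 634 in CRS-NKAα1+/- and 0 to 9 in CRS-WT, and was called lower at -2.79, having passed the filter only through CRS-NKAα1+/-. Cxcl1 was called in 18 of the 23 alternatives, but voom called 0 of the 19. The monocyte attractant Ccl12 was at 0.781 to 1.26 FPKM in CRS-WT-DR5-12D and at 11.7 to 52.5 FPKM in CRS-NKAα1+/-, with a fold change of -3.84. Ccl5, an attractant of T cells, had a fold change of -3.15 and was not called, its limma adjusted p being 0.0636.

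Of 16 inflammasome and interleukin-1 genes only Il1b was called, lower. Il1b, the inflammatory cytokine that the inflammasome matures, was at 0.520, 0.304 and 0.322 FPKM in CRS-WT-DR5-12D, at 5.19, 19.1 and 40.7 FPKM in CRS-NKAα1+/- and at 0.557, 1.32 and 0.387 FPKM in CRS-WT. Voom called 0 of the 16, and Il1b was called in 10 of the 23 alternatives. The CRS-NKAα1+/- libraries spread over a wide range that stood above all others, with a log2 fold change of -3.65 ± 0.58 and a limma adjusted p of 0.0423. Il1a, its relative, and Tnf, the cytokine of the TNF pathway, had fold changes of -2.32 and -2.69 with limma adjusted p of 0.139 and 0.0722, and both were highest in CRS-NKAα1+/- replicate 3. Nlrp3, the sensor of the inflammasome, was at -1.19 with an adjusted p of 0.314.

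In the NF-kappaB and TNF pathway 4 of 19 genes were called lower, 15 lay lower without overlap, and the median was -0.89. Icam1, an adhesion molecule for leukocytes, was at 0.779, 0.616 and 0.942 FPKM in CRS-WT-DR5-12D and at 11.2, 17.6 and 27.7 FPKM in CRS-NKAα1+/-, against 1.2, 4.78 and 1.63 FPKM in CRS-WT. No CRS-WT-DR5-12D library reached 1 FPKM, and the fold change was -3.40 ± 0.39 with a limma adjusted p of 0.0173. The adhesion molecule Vcam1, the pathway subunit Nfkb2 and the adaptor Myd88 fell by 1.43, 1.06 and 0.71 on the log2 scale. Sele, the endothelial selectin that slows leukocytes, was at 0.0723 to 0.126 FPKM in CRS-WT-DR5-12D and at 4.36 to 6.97 FPKM in CRS-NKAα1+/-, and fell by 2.6. It belongs to no list and is named after its values were seen, as is Socs3, the feedback inhibitor of cytokine signalling, which fell by 2.21.

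The 250 bases before the RefSeq start of each gene (GRCm38.p6) were searched on both strands for 7 motifs, chosen with the called genes known. A promoter was found for 68 of the 89 genes called lower and for 11343 of the genes tested. The NF-kappaB letters, GGG and TTTCC with any 2 bases between them, stood in 6 of the 68 (8.82%) and in 1.63% of the 11343. The interferon-stimulated response element, TTTC and TTTC with 2 bases between them, stood in 10 of the 68 (14.7%) and in 3.09%, and its longer form with TTTC 3 times at that spacing, which contains it, in 1 of the 68 (1.47%) and in 0.115%. The endoplasmic reticulum stress element, CCAAT and CCACG with 9 bases between them, stood in 1 of the 68 (1.47%) and in 0.141%. The C/EBP letters, TTGC and AA with 2 bases between them, stood in 9 (13.2%) and in 8.82%, and the glucocorticoid response letters, ACA and TGT with 3 bases between them, in 7 (10.3%) and in 4.68%. The heat shock letters, GAA, TTC and GAA with 2 bases between each, stood in 0 of the 68 and in 0.476%. These shares are a description of letters and were not tested. The promoters below were picked after the matches were seen, because each holds the letters named, which stand in capitals. They show Cxcl1 (chr5:90890995-90891244) and Cxcl2 (chr5:90903649-90903898) with 2 NF-kappaB matches each, the first of Cxcl1 on the opposite strand, Ifit1 (chr19:34640639-34640888) with 2 interferon element matches, and Creld2 (chr15:88819396-88819645) with 1 stress element match on the opposite strand, all written 5′ to 3′ on the plus strand, which is the strand of each gene.
Cxcl1: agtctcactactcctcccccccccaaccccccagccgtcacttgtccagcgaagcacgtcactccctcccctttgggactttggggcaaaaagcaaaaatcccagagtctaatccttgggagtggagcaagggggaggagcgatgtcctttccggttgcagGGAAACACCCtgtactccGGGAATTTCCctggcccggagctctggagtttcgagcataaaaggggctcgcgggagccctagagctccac
Cxcl2: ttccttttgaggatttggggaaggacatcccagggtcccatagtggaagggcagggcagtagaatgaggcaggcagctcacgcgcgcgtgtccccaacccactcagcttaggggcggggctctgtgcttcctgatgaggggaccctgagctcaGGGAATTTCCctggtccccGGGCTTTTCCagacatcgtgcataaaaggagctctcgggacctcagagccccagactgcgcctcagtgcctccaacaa
Ifit1: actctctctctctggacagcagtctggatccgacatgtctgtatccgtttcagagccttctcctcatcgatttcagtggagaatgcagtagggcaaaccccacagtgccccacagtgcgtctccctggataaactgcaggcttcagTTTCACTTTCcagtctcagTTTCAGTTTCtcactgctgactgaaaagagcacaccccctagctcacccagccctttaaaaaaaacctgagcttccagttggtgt
Creld2: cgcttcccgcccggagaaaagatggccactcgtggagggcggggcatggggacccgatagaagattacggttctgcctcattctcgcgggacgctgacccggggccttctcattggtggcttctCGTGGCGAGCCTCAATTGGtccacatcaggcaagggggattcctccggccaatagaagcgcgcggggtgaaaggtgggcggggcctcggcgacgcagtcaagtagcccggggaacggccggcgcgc

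Of 13 tested complement components and receptors 5 were called lower, all 13 lay lower without overlap, and the median log2 fold change was -1.5. C1q, the recognition molecule of the classical pathway, is built from the products of 3 neighbouring genes on chromosome 4 and is made in the brain mainly by microglia. C1qa was at 63.7, 48.1 and 56.4 FPKM in CRS-WT-DR5-12D, at 189, 247 and 156 FPKM in CRS-NKAα1+/- and at 125, 146 and 108 FPKM in CRS-WT. The CRS-WT-DR5-12D libraries were the lowest and the CRS-NKAα1+/- libraries the highest, with no overlap among the 3 groups, and the fold change was -1.78 ± 0.18 with a limma adjusted p of 0.0166. C1qb and C1qc fell by 1.64 and 1.5 on the log2 scale. C5ar1, the receptor for the fragment C5a, was at 0.148, 0.266 and 0.429 FPKM in CRS-WT-DR5-12D, at 2.56, 3.95 and 4.60 FPKM in CRS-NKAα1+/- and at 0.413, 0.515 and 0.466 FPKM in CRS-WT. It passed the filter on low values only through the CRS-NKAα1+/- libraries, so its side was fixed by the filter, and its fold change of -1.86 ± 0.17 with a limma adjusted p of 0.0118 is a description. Itgb2, the beta chain of the complement receptor integrins, fell by 1.64. Without the 3 libraries that stood apart, which leaves 1 CRS-NKAα1+/- library, 5 of the 13 were called lower and the median was -1.37.

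**Figure D3:**
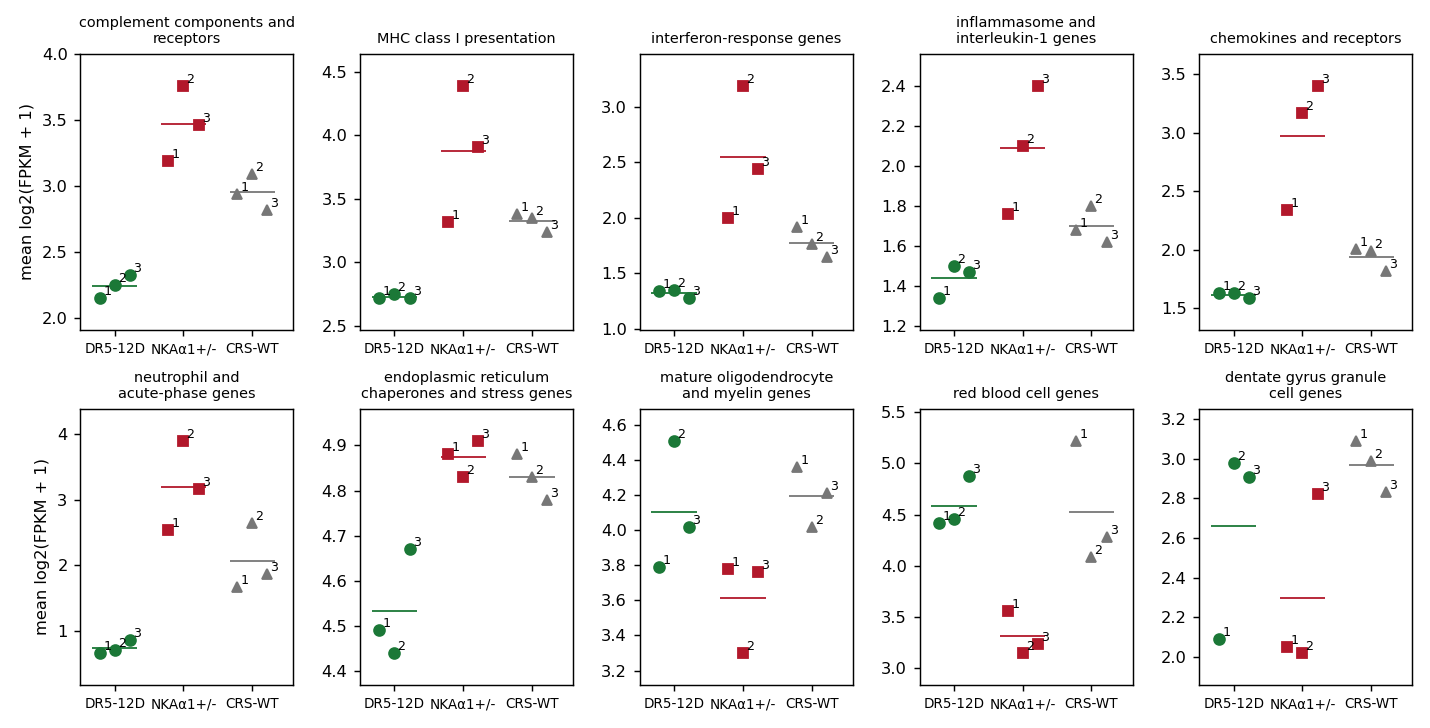
Mean log2(FPKM + 1) over the tested members of 10 gene lists in each library (points, numbered by replicate) with the group mean as a line, for CRS-WT-DR5-12D, CRS-NKAα1+/- and CRS-WT. Each panel has its own vertical axis that does not start at 0. Complement means lie at 2.15 to 2.32 in CRS-WT-DR5-12D and 3.19 to 3.76 in CRS-NKAα1+/-, while dentate gyrus means split the libraries within both groups.

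Microglial genes did not all lie on the same side. Of 18 homeostatic microglia genes 5 were called lower, with a median of -0.58. Ctss, a lysosomal protease of microglia, was at 60.7, 52.3 and 40.8 FPKM in CRS-WT-DR5-12D and at 111, 145 and 132 FPKM in CRS-NKAα1+/-, with 108, 106 and 94.7 FPKM in CRS-WT, and fell by 1.33 on the log2 scale. Tyrobp, a signalling adaptor of myeloid receptors, the surface marker Tmem119 and the secreted Olfml3 fell by 1.19, 1.16 and 0.88. Itgam, an integrin alpha chain, was also called, but 68.7% of its exon bases are shared with another annotated gene. Csf1r, the growth factor receptor that microglia need, had a fold change of -0.71 and was not called, with a limma adjusted p of 0.103.

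By contrast, 3 homeostatic genes lay higher in CRS-WT-DR5-12D without overlap, and none of these was called. P2ry12, the microglial receptor for ADP, was at 13.8, 12.1 and 7.95 FPKM in CRS-WT-DR5-12D, at 5.85, 5.93 and 6.30 FPKM in CRS-NKAα1+/- and at 10.6, 12.2 and 8.66 FPKM in CRS-WT. The CRS-NKAα1+/- libraries stood below all others, with a log2 fold change of 0.78 ± 0.19 and a limma adjusted p of 0.153. Gpr34, a lysophosphatidylserine receptor, and Siglech, a sialic acid-binding lectin, had fold changes of 0.89 and 0.83 with limma adjusted p of 0.0824 and 0.108. Without CRS-WT-DR5-12D replicate 3, Gpr34 was called higher at 1.10 with an adjusted p of 0.0390.

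Of 15 microglial activation genes 3 were called lower, and all 3 were Fc receptors for IgG. Beside Fcgr3, the inhibitory receptor Fcgr2b fell by 1.39 and the high-affinity receptor Fcgr1 by 1.52 on the log2 scale. Fcgr4, in no list and named after its values were seen, was at 0.334, 0.168 and 0.0976 FPKM in CRS-WT-DR5-12D and at 3.51, 9.53 and 5.65 FPKM in CRS-NKAα1+/-, and fell by 2.51. Cd14, the co-receptor for bacterial lipopolysaccharide, had a fold change of -2.72 and a limma adjusted p of 0.0647. Gpr84, a receptor for medium-chain fatty acids in no list, was at 0.738, 0.510 and 0.316 FPKM in CRS-WT-DR5-12D and at 4.24, 10.9 and 20.6 FPKM in CRS-NKAα1+/-, and fell by 2.87, though 39.5% of its exon bases are shared with another annotated gene. Of 10 Toll-like receptors and co-receptors limma and voom called 0, with 7 lower at an unadjusted p under 0.05 and a median of -0.62.

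Of 24 interferon-response genes 3 were called lower, 22 lay lower without overlap, and the median was -1.10. Ifitm3, a membrane protein that hinders virus entry, was at 11.8, 17.4 and 17.3 FPKM in CRS-WT-DR5-12D, at 63.9, 188 and 80.4 FPKM in CRS-NKAα1+/- and at 44.2, 39.7 and 29.8 FPKM in CRS-WT. CRS-NKAα1+/- replicate 2 was again the highest, with a fold change of -2.62 ± 0.37 and a limma adjusted p of 0.0298. The antiviral Ifit1 and the guanylate-binding Gbp3 were the other two, at -1.58 and -1.39. Isg15, a ubiquitin-like protein, was at 2.57, 2.58 and 2.76 FPKM in CRS-WT-DR5-12D and at 6.25, 42.0 and 9.85 FPKM in CRS-NKAα1+/-, and was not called, with a limma adjusted p of 0.256. Ifi27l2a, an interferon-inducible gene in no list, fell by 2.75.

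All 15 tested MHC class I presentation genes had values below 0, and 2 were called lower. H2-D1, a classical class I heavy chain, was at 15.4, 15.5 and 15.7 FPKM in CRS-WT-DR5-12D, at 40.4, 94.3 and 68.1 FPKM in CRS-NKAα1+/- and at 49.6, 51.2 and 40.4 FPKM in CRS-WT. The CRS-WT-DR5-12D libraries were nearly equal and the lowest, with a fold change of -1.97 ± 0.26 and a limma adjusted p of 0.0257. H2-K1, its paralog, fell by 1.98, and reads of such near-identical genes may be split between them. The light chain B2m had a fold change of -1.58 and a limma adjusted p of 0.0864. Of 9 class II genes only Ctsh, a protease, was called, also lower. With 1 CRS-NKAα1+/- library left after the 3 that stood apart were removed, 7 class I and 6 interferon-response genes were called lower.

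Lysosomal and lipid mediator enzymes had a few calls. Of 16 cathepsins and related proteases 5 were called lower, namely Ctss, Ctsh, Ctsc, Lgmn and Ctsl (26.8% of whose exon bases are shared with another gene), with a list median of -0.28. Ctsh was at 2.6, 2.90 and 2.62 FPKM in CRS-WT-DR5-12D, at 7.41, 11.2 and 8.80 FPKM in CRS-NKAα1+/- and at 6.39, 8.03 and 6.25 FPKM in CRS-WT, and fell by 1.44 ± 0.14 on the log2 scale with a limma adjusted p of 0.0157. Of 13 leukotriene and prostaglandin enzymes 2 were called lower. Ptges, a terminal synthase of prostaglandin E, was at 1.61, 0.884 and 0.952 FPKM in CRS-WT-DR5-12D and at 3.43, 4.69 and 3.44 FPKM in CRS-NKAα1+/-, against 0.894, 1.33 and 0.974 FPKM in CRS-WT. Alox5ap, the helper protein of leukotriene synthesis, had a fold change of -1.34. Its difference to CRS-WT was -0.155 in CRS-WT-DR5-12D and 1.183 in CRS-NKAα1+/-. Ptgs2, the inducible cyclooxygenase, was at -1.04 with a limma adjusted p of 0.0734.

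Of 22 endoplasmic reticulum chaperones and stress genes 2 were called lower, 14 lay lower without overlap, and the median was -0.32. Creld2, a secreted factor induced by unfolded protein, was at 8.19, 7.99 and 9.93 FPKM in CRS-WT-DR5-12D, at 15.2, 13.9 and 15.9 FPKM in CRS-NKAα1+/- and at 13.8, 14 and 14.6 FPKM in CRS-WT. The CRS-WT-DR5-12D libraries stood below all others, with a fold change of -0.72 ± 0.09 and a limma adjusted p of 0.0216. Sdf2l1, a cofactor of the chaperone BiP, fell by 1.35, while Hspa5, which encodes BiP, was at -0.69 and not called, with an adjusted p of 0.0953. Of 20 cytosolic heat shock genes Hspb1, a small heat shock protein, and Hspa1a were called lower at -1.83 and -1.61. Hspa1a has a near-identical copy, Hspa1b, and overlaps Gm20481, so its reads are uncertain. Gm20481, in no list, was also called lower, at -1.69. It shares 100% of its exon bases with Hspa1a on the opposite strand, so its reads may be those of Hspa1a. Rescaled to TPM, the heat shock median was -0.02 and 1 of the 20 was called.

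Of 22 glucocorticoid-responsive genes only Lcn2 was called, also counted among the acute-phase genes, and 19 of the 22 had values below 0. Cdkn1a, an inhibitor of the cell cycle, was at 18.8, 4.74 and 5.85 FPKM in CRS-WT-DR5-12D and at 32.1, 44.2 and 23.4 FPKM in CRS-NKAα1+/-, with a fold change of -1.85 and a limma adjusted p of 0.146. CRS-WT-DR5-12D replicate 1 stood apart within its group, and without it Cdkn1a was called lower at -2.40 with a limma adjusted p of 0.0328. Plin4, a coat protein of lipid droplets, was at -1.25 with a limma adjusted p of 0.0769. The receptors for corticosteroids, CRH and serotonin had a median of 0.10, and of these 14 genes limma and voom called 0, with 0 at an unadjusted p under 0.05.

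Reactive astrocyte genes had a median of -0.91, with 2 of 16 called lower, Lcn2 and Hspb1. Serpina3n, a protease inhibitor of reactive astrocytes, was at 9.89, 27.4 and 22.8 FPKM in CRS-WT-DR5-12D and at 70.9, 170 and 80.8 FPKM in CRS-NKAα1+/-, and was not called, with a limma adjusted p of 0.0734. Gfap, the astrocyte intermediate filament, was at 15.3, 71.7 and 71.5 FPKM in CRS-WT-DR5-12D, at 87.9, 145 and 117 FPKM in CRS-NKAα1+/- and at 168, 186 and 126 FPKM in CRS-WT. Its low library was CRS-WT-DR5-12D replicate 1, and the limma adjusted p was 0.468. General astrocyte genes had a median of 0.04, and of these 20 limma and voom called 0, with 2 higher and 2 lower at an unadjusted p under 0.05. Of 19 endothelial genes Ly6a and Ly6c1, surface proteins of brain endothelium in mice, were called lower at -1.71 and -1.08. Ly6a is also induced by interferon and was called in 21 of the 23 alternatives, and the endothelial median was -0.01, or 0.09 when rescaled to TPM.

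**Figure D4:**
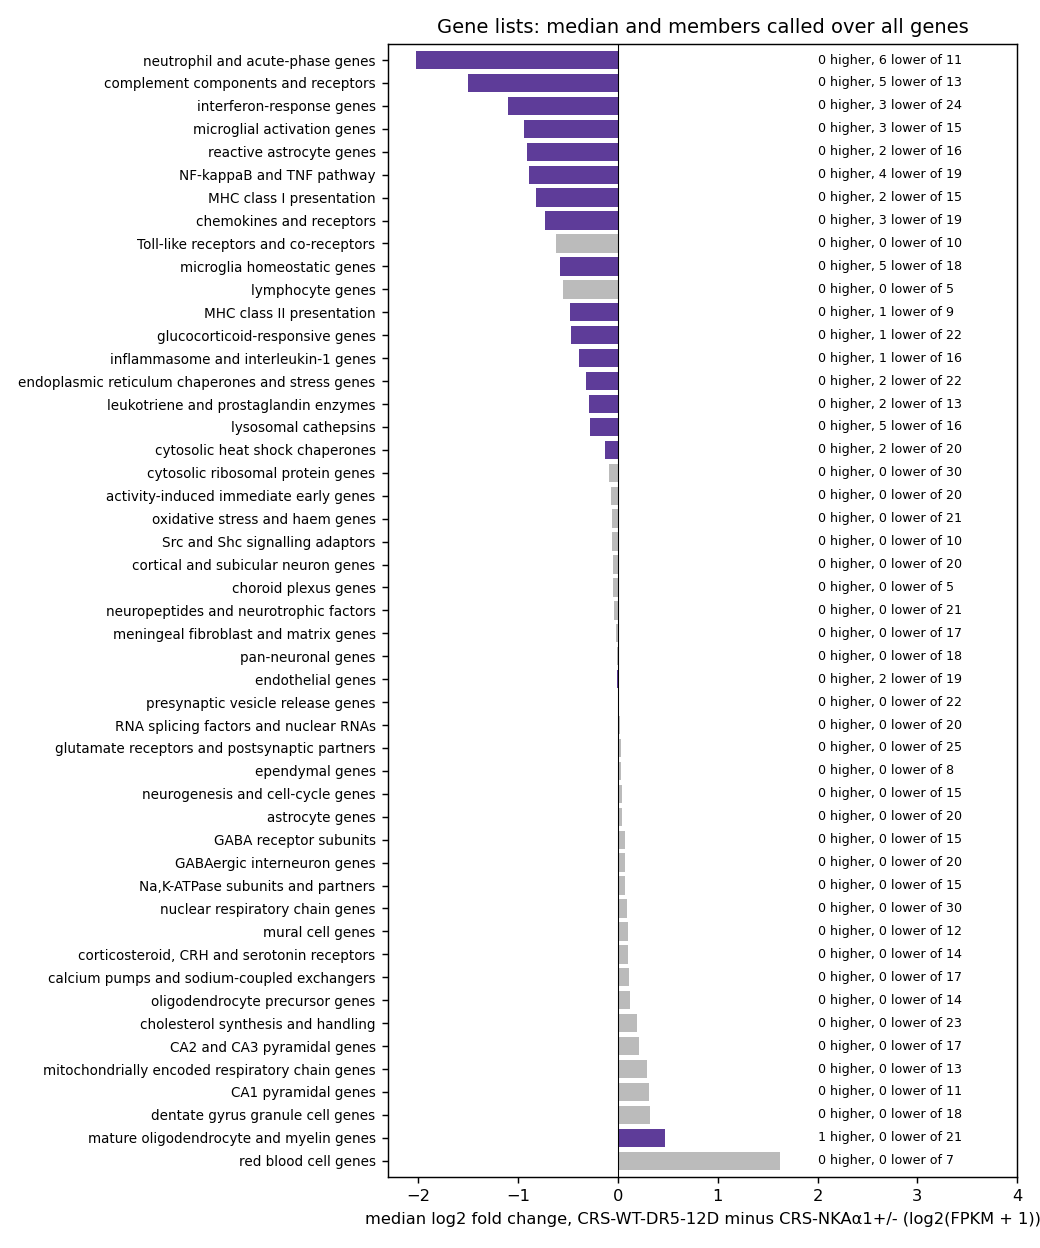
Median log2 fold change of CRS-WT-DR5-12D minus CRS-NKAα1+/- over the tested members of each of 49 gene lists (bars), with the number of members called higher and lower at the right. Lists with at least 1 called gene are purple, and their medians run from -2.02 for neutrophil and acute-phase genes to 0.47 for myelin genes.

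The genes called higher in CRS-WT-DR5-12D were Opalin and Gm2061. Opalin, a membrane protein of myelinating oligodendrocytes at chr19:41061710-41077113 on the minus strand, was at 13.6, 22.8 and 13.3 FPKM in CRS-WT-DR5-12D, at 4.14, 4.30 and 6.48 FPKM in CRS-NKAα1+/- and at 11.8, 10.7 and 12.0 FPKM in CRS-WT. The CRS-NKAα1+/- libraries were the 3 lowest of the 9, with a fold change of 1.54 ± 0.21 and a limma adjusted p of 0.0287, and Opalin was called in 11 of the 23 alternatives. Of 21 mature oligodendrocyte and myelin genes it was the only one called, while 18 had values above 0, 6 lay higher without overlap and the median was 0.47. Mog, a myelin surface protein, was at 0.93 with a limma adjusted p of 0.338.

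Haemoglobin transcripts mark red blood cells left in the tissue. All 7 tested red blood cell genes had log2 fold change values above 0, 5 without overlap, with a median of 1.62, where limma and voom called 0 and 4 were higher at an unadjusted p under 0.05. Hbb-bs was at 113, 92.7 and 182 FPKM in CRS-WT-DR5-12D, at 45.2, 21.7 and 22.7 FPKM in CRS-NKAα1+/- and at 149, 46.2 and 70.8 FPKM in CRS-WT. Hbb-bt had a fold change of 2.46 and a limma adjusted p of 0.0647, and in the fit of the 6 libraries alone it was called with an adjusted p of 0.0309. The globin genes have near-identical copies, so their single values are uncertain. The direction is opposite to that of the neutrophil genes, and the part of residual blood in either was not tested. Of 17 meningeal, 12 mural cell, 8 ependymal and 5 choroid plexus genes that passed the filter, limma and voom called 0, with medians of -0.02, 0.10, 0.03 and -0.05. At an unadjusted p under 0.05, 2 meningeal genes were lower and 1 mural cell gene was higher.

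Gkn3, named by its small p and of no list, was at 1.83, 2.77 and 2.94 FPKM in CRS-WT-DR5-12D and at 0.0746, 0.309 and 0.401 FPKM in CRS-NKAα1+/-, with a limma adjusted p of 0.0558. Cat, which encodes catalase, had a fold change of 0.35 and a limma adjusted p of 0.0851. Of 23 cholesterol synthesis and handling genes 21 had values above 0 and 10 lay higher without overlap, and the median was 0.19. Limma and voom called 0 of them, with 9 higher and 2 lower at an unadjusted p under 0.05. Idi1, an isomerase of the pathway, was at 5.99, 6.15 and 4.83 FPKM in CRS-WT-DR5-12D and at 3.55, 3.22 and 3.89 FPKM in CRS-NKAα1+/-, with a limma adjusted p of 0.0980. Insig1, the sterol-sensing brake on the pathway, was at 0.46 with a limma adjusted p of 0.120.

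Of 18 pan-neuronal, 25 glutamate receptor, 15 GABA receptor and 22 presynaptic genes limma and voom called 0, with 1 presynaptic gene higher at an unadjusted p under 0.05. Their medians were -0.01, 0.03, 0.07 and 0.00. Dentate gyrus and CA1 lists had medians of 0.32 and 0.31. These were 0.11 and 0.36 without the 3 libraries that stood apart, 1 of them CRS-WT-DR5-12D and 2 CRS-NKAα1+/-. They were -0.01 and 0.18 with the dentate list as covariate. Immediate early genes, which follow neuronal activity, had a median of -0.07, and limma and voom called 0 of 20, with 0 at an unadjusted p under 0.05. With the dentate list as covariate, that median was 0.26 and 3 of the 20 were called higher, while without the 3 libraries that stood apart it was 0.08 with 0 called higher and 1 lower. Ribosomal protein genes and nuclear respiratory chain genes had medians of -0.09 and 0.09, and of 30 in each list limma and voom called 0, with 0 at an unadjusted p under 0.05.

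Other called genes lie in no list and are named after their values were seen. Tmem173, the cytosolic DNA sensing adaptor STING, was at 1.91, 1.76 and 2.0 FPKM in CRS-WT-DR5-12D and at 4.61, 5.16 and 4.76 FPKM in CRS-NKAα1+/-, and was called in 19 of the 23 alternatives. Il4ra, the receptor chain for interleukin 4 and interleukin 13, fell by 1.19 on the log2 scale. Ifi30, a lysosomal thiol reductase of antigen processing, was at 2.22, 2.47 and 1.56 FPKM in CRS-WT-DR5-12D and at 12.2, 25.8 and 16.2 FPKM in CRS-NKAα1+/-. Tspo, the outer mitochondrial membrane protein used as an imaging marker of neuroinflammation, was at 3.92 to 4.66 FPKM in CRS-WT-DR5-12D and at 14 to 39.6 FPKM in CRS-NKAα1+/-. Tgm2, a transglutaminase, fell by 1.35, and 21.8% of its exon bases are shared with another annotated gene. The called gene Gm20412 shares 100% of its exon bases with Tgm2 on the opposite strand, so its reads may be those of Tgm2. Gm2061, the other gene called higher, was at 2.11, 2.46 and 2.29 FPKM in CRS-WT-DR5-12D and at 1.34, 0.927 and 1.27 FPKM in CRS-NKAα1+/-, with a limma adjusted p of 0.0446.

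Values against the CRS-WT libraries show on which side of CRS-WT each group lay. Both differences share the same 3 CRS-WT libraries and are given side by side with no test between them. In CRS-WT, Gm23935 took a smaller share of the FPKM sum than in the other groups, and no library was low in dentate transcripts. The part of this in the differences was not tested. For Cxcl1 the difference to CRS-WT was -0.61 ± 0.46 in CRS-WT-DR5-12D and 3.42 ± 0.46 in CRS-NKAα1+/-. For Il1b it was -0.31 in CRS-WT-DR5-12D and 3.34 in CRS-NKAα1+/-, and for C5ar1 -0.20 in CRS-WT-DR5-12D and 1.66 in CRS-NKAα1+/-. C5ar1 passed the filter only through CRS-NKAα1+/-, so the side of its distance was fixed by the filter. For Cxcl1 and Il1b the larger part of the distance on this scale lay on the CRS-NKAα1+/- side. Their mean FPKM was 0.481 and 0.382 in CRS-WT-DR5-12D and 1.39 and 0.754 in CRS-WT. At such levels the added 1 shrinks the difference between these 2 groups. For Fcgr3 the difference was -1.17 in CRS-WT-DR5-12D and 0.79 in CRS-NKAα1+/-, and for C1qa it was -1.16 in CRS-WT-DR5-12D and 0.62 in CRS-NKAα1+/-. These lay on both sides of CRS-WT. For H2-D1 the difference was -1.53 in CRS-WT-DR5-12D and 0.44 in CRS-NKAα1+/-, for Creld2 -0.65 in CRS-WT-DR5-12D and 0.08 in CRS-NKAα1+/-. For Saa3 it was -3.74 in CRS-WT-DR5-12D and 0.82 in CRS-NKAα1+/-. In these the larger part lay on the CRS-WT-DR5-12D side. None of the differences to CRS-WT of Cxcl1, Il1b, Fcgr3, C1qa, H2-D1, Creld2 and Saa3 was called. In CRS-WT-DR5-12D the limma adjusted p was 0.0811 for Fcgr3, 0.0921 for C1qa and 0.098 for H2-D1. It was 0.0859 for Creld2 and 0.105 for Saa3. In CRS-NKAα1+/- it was 0.0595 for Cxcl1 and 0.109 for Il1b.

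Against CRS-WT, limma adjusted p for Srgn and C5ar1 was 0.123 and 0.639 in CRS-WT-DR5-12D, while both had 0.0366 in CRS-NKAα1+/-. The values of C5ar1, which passed the filter only through CRS-NKAα1+/-, are a description. For Opalin the difference to CRS-WT was 0.45 in CRS-WT-DR5-12D and -1.09 in CRS-NKAα1+/-. Shc4, an adaptor of receptor tyrosine kinases, was at 11.3, 10.8 and 11 FPKM in CRS-WT-DR5-12D, at 12.1, 12.1 and 10.1 FPKM in CRS-NKAα1+/- and at 6.24, 6.55 and 6.42 FPKM in CRS-WT. It stood above CRS-WT in both groups, with limma adjusted p of 0.0470 for CRS-WT-DR5-12D and 0.0366 for CRS-NKAα1+/-, and its fold change between them was -0.04 with an adjusted p of 0.900. The standard error of that last value was 0.08, and its sign turned under other settings.

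**Figure D5:**
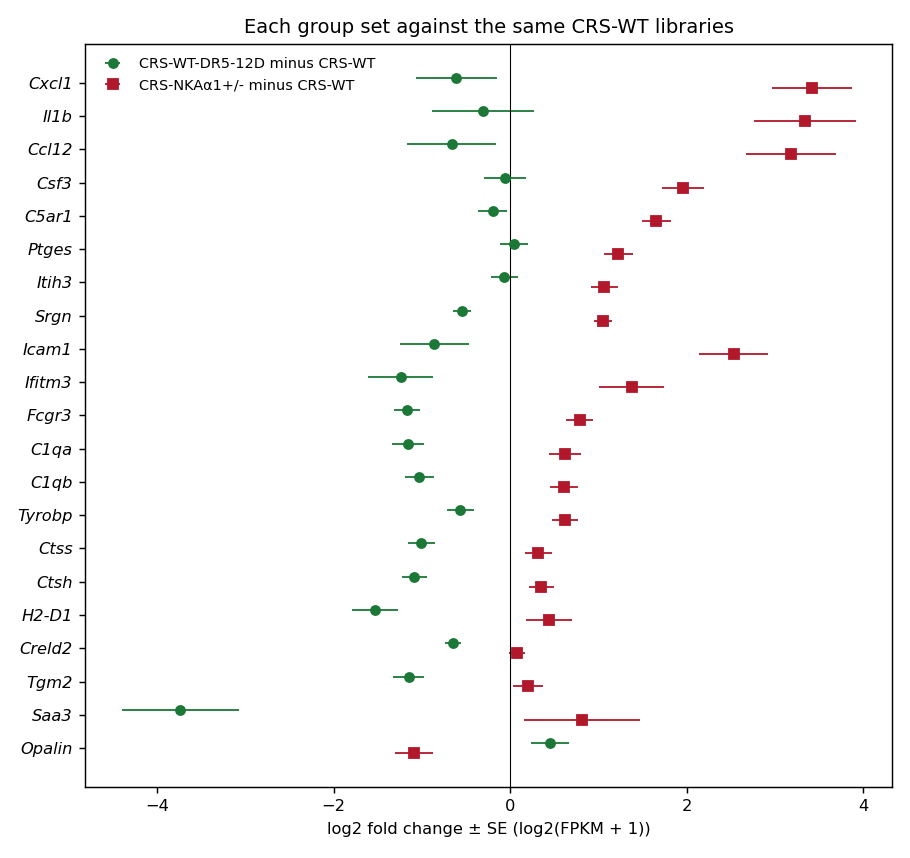
Log2 fold change ± SE of CRS-WT-DR5-12D (green circles) and of CRS-NKAα1+/- (red squares) against the same 3 CRS-WT libraries for 21 genes. Cxcl1 lies at -0.61 in CRS-WT-DR5-12D and 3.42 in CRS-NKAα1+/-, and Saa3 at -3.74 in CRS-WT-DR5-12D and 0.82 in CRS-NKAα1+/-.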

How the data were processed

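The authors deposited FPKM values for 53465 genes in 9 libraries of mouse ventral hippocampus. Per the labels' protocols RNA was extracted with TRIzol, and per the submitters' processing notes cutadapt, HISAT2, RSEM 1.2.30 and the build GRCm38 were used, with annotation release and strandedness not given in the sources used here. In 16214 (91.3%) of the 17753 genes tested the values gave whole fragments within 0.02 when multiplied by exon length (GENCODE M21) and a number per library. Groups were taken from the labels.

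Genes with a mean of at least 0.5 FPKM were fitted as log2(FPKM + 1) with limma 3.58.1 in R 4.3.3, with 9 libraries in 1 fit, the spread modelled as a trend on the mean level, two-sided moderated tests and Benjamini-Hochberg adjustment over all genes tested. The fit was tested on simulated data. Tables and plots used Python 3.11.15, pandas 2.3.3 and matplotlib 3.10.9. No count test was used as the main result because FPKM are not counts. The number of fragments limits precision for genes of low level.

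The genes compared and the 49 gene lists were chosen with earlier results of these data known. Up to 12 called genes in each direction are named by size of change, with a mean of at least 1 FPKM, no overlap and a symbol other than a clone or model number, and a direction with fewer than 5 is filled to 5 by the smallest p. In each list up to 5 members are named by the smallest p, and the pump's beta subunits always. A few genes named by these rules are not reported here. Genes outside these rules are marked where their values were seen first, and P2ry12, Siglech, Csf1r, B2m, Isg15, Gfap, Hspa5, Ngp and Retnlg, members of lists, are named in the same way. Of 23 alternatives, 4 were added after seeing the data, those without a CRS-WT library and the rescaling to TPM without Gm23935.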

Additional observations from a re-analysis of the deposited data

How the results depend on the processing

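Counts of genes called lower and higher in CRS-WT-DR5-12D against CRS-NKAα1+/- were 89 and 2. They were 124 and 6 with a pseudocount of 0.1, 34 and 0 with a pseudocount of 5, 27 and 3 with no filter on low values, 77 and 1 with a mean of at least 2 FPKM, 65 and 3 when rescaled to TPM, and 107 and 6 when rescaled to TPM without Gm23935. They were 84 and 3 after quantile normalization, 4 and 1 with the 6 libraries alone in the fit, 87 and 2 without the trend, 119 and 7 with library quality weights, 91 and 8 with the dentate gyrus covariate, 94 and 1 without the 3 low-dentate libraries, and 61 and 1 by voom. Leaving out 1 library at a time gave 1 to 192 lower and 0 to 8 higher. With a replicate block they were 40 and 0. Deviations of same-numbered libraries of the 2 groups correlated at 0.45, -0.35 and 0.497 over genes, so not every pair was over 0.1 and the numbers were not taken to pair the libraries. Rescaling to TPM put the median of all genes at 0.1018 in place of 0.0065. Of 1304 values of 57 named called genes under the alternatives, 759 kept their call and 545 lost it, while their sign was fixed under most alternatives because the groups do not overlap. Of 2036 values of 89 of the named genes 4 turned sign, all of genes not called. These were Atp1b3 at 0.051 rescaled to TPM, and Shc4 at 0.058 rescaled to TPM, 0.016 with the covariate and 0.105 without the 3 low-dentate libraries. The cause of these changes was not tested. A single library left out leaves 2 in its group, and leaving out the 3 low-dentate libraries leaves 1 in CRS-NKAα1+/-.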
